A study of Mus musculus with 7 samples.

Results

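Colon taken 3 days after repeated rectal TNBS was compared with colon taken 3 days after saline. TNBS, trinitrobenzene sulphonic acid, binds to proteins of the bowel wall and turns them into targets of the immune system. Both groups had 6 enemas. The comparison takes 3 of the 7 arrays of the series: 1 array of the week 6 TNBS pool and 2 arrays of the week 6 saline pool, chosen by their labels. The remaining arrays hold TNBS pools of weeks 8, 10 and 12 and a later saline pool. The TNBS pool held RNA of 6 mice and the saline pool RNA of 5 mice, all female CD-1 outbred animals aged 10 to 12 weeks at the start, and the tissue was taken 4 ± 0.5 cm from the anus. TNBS was given in ethanol and the controls had saline without it, so ethanol and TNBS cannot be told apart in these arrays. The later saline pool held RNA of 4 mice, killed 2 or 4 weeks after their enemas. Every pool joins its animals in 1 RNA sample and each side of the comparison is 1 pool, so the spread between mice was not measured and no test between the pools is possible. The labels speak of 2 replicates of the pooled saline RNA, and the difference between those arrays is the only measured error.

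TNBS colitis is widely used as a model of T cell driven inflammation of the gut. In inflamed mucosa interferon gamma from T and NK cells acts on nearby cells, neutrophils and monocytes enter the tissue, and the epithelium switches from absorption and secretion to defence and renewal. Genes of each of these programmes were set beside both saline arrays singly, in the order of inflammatory signals, immune cells, epithelium and stroma. The lists and their members were chosen with earlier results of these data known, so their counts are not independent of these data.

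Each value is the signal of a probe set (a set of short oligonucleotides for 1 transcript), on a linear scale with the mean of an array set to 150. The week 6 arrays were alike in signal, with medians of 59.8 and 60.5 for saline and 61.2 for TNBS. Between 45.4% and 46.0% of their probe sets lay under 50, the floor to which lower signals were raised before taking log2. The beta-actin signal at the 3' end over that at the 5' end, a sign of RNA integrity, was 1.14 and 1.23 on the saline arrays and 1.24 on the TNBS array, against 0.798 on the later saline array. The same ratio for Gapdh differed less, at 0.912 and 0.942 in saline, 0.935 in TNBS and 0.897 on the later saline array. The tissue carried the markers of colon on all 3 arrays. Krt8, an epithelial keratin, read 6248 and 5493 in saline and 5731 in TNBS, Clca1 of goblet cells 9649.9, 7911 and 8458, and Actg2 of smooth muscle 2969, 3083 and 2716. Among other defining markers Cdx2 (77.1, 36.4 and 30.7) lay near or under the floor, as did Kdr of endothelium (41, 49.7 and 36.7) and S100b of glia (24.3, 21.7 and 34.4).

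Of 4316 genes with a signal of at least 100 in some pool of the series, 82 (1.9%) were at least 2-fold above each of the 2 saline arrays in the TNBS pool and 31 (0.718%) at least 2-fold below each. Against the log2 mean of both saline arrays the counts were 110 (2.55%) and 43 (0.996%). Array 1 alone gave 106 higher (2.46%) and 52 lower genes (1.2%), and array 2 alone 135 (3.13%) and 51 (1.18%). These comparisons share the TNBS array, so an error of that array enters each of them. Saline array 1 was at least 2-fold above array 2 for 15 genes (0.348%) and 2-fold below it for 16 (0.371%), together 0.718% of the genes. At 1.5-fold 5.33% of the genes were apart between those arrays, where 5.4% were as far above and 4.01% as far below each of them in TNBS. None of the 153 genes counted against the mean lay on the other side of 0 against a single saline array. That could happen only where the saline arrays were far more than 2-fold apart. Timp1, an inhibitor of matrix metalloproteinases, shows what averaging can hide. Its saline arrays read 69.8 and 286.5 and the TNBS array 477, which is 6.83-fold above array 1 and 1.66-fold above array 2. The genes nearest the limit were H2-Oa (2-fold against its nearer saline array), C1qb (2.02-fold), C1qa (just under 2-fold) and Upp1 (1.99-fold) on the higher side. On the lower side they were Eef1a2 (2-fold), Golga3 (2.04-fold), Dpep1 (1.96-fold) and Unc45a (1.95-fold). Rag1 and Tacr2 also stood at 2-fold, but lay under the floor in TNBS, so theirs is a lower bound.

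**Figure D1:**
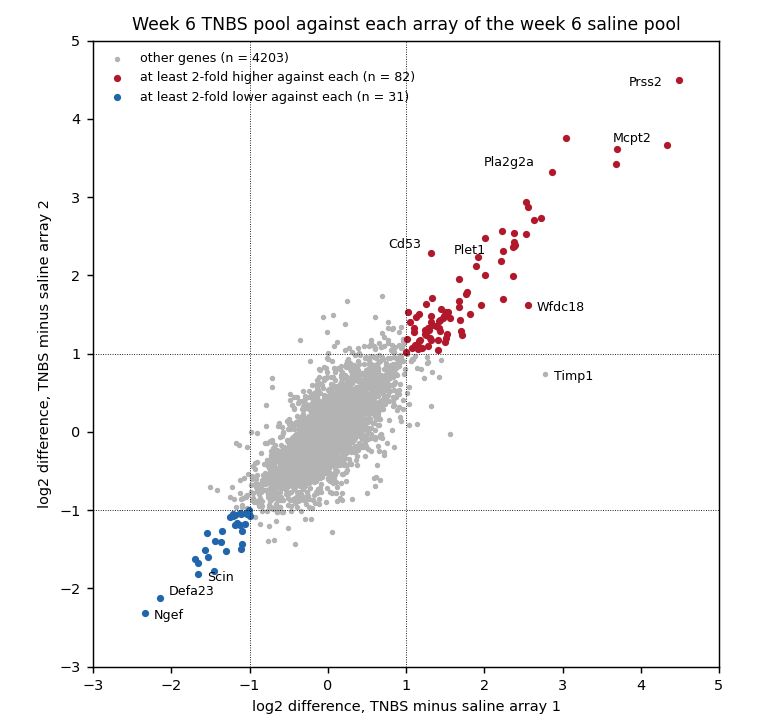
Log2 difference of the week 6 TNBS pool from saline array 1 (horizontal axis) and from saline array 2 (vertical axis), 1 point per gene, with dotted lines at 2-fold. The 82 red and 31 blue points are at least 2-fold higher or lower against each array; both axes share the TNBS array, so points lie along the diagonal for that reason too, and Timp1 stands off it.

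The counted genes differed in level by direction. Among 539 genes with a mean saline signal of 50 to 100, 47 were at least 2-fold above each saline array (8.72%), and the floor allowed none to be 2-fold below. Among 357 genes with a saline signal of 1000 or over none was 2-fold higher and 3 were 2-fold lower. The spread between both saline arrays was also wider at low signal: the SD of their log2 difference was 0.39 in the lowest range and 0.18 in the highest. The SD of the difference between TNBS and saline was 0.63 and 0.36 in these ranges. Of the 82 higher genes 20 lay under the floor on both saline arrays, so their fold is a lower bound. Through the TNBS signal alone 17 of the 82 reached the minimum of 100, and these had to stand above saline to be measured at all. The TNBS signal of 8 of the 31 lower genes lay under the floor.

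**Figure D2:**
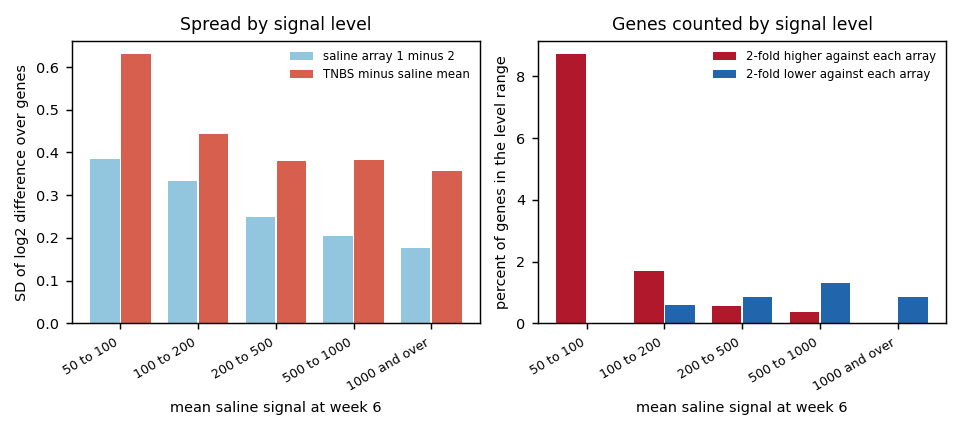
Left, the SD over genes of the log2 difference between both saline arrays and between TNBS and the saline mean, by mean saline signal at week 6; right, the percent of genes in each range at least 2-fold higher or lower against each saline array. Higher genes were most frequent at 50 to 100 (8.72%), where the saline arrays also differed most (SD 0.39).

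Interferon gamma targets included the immunity-related GTPases and guanylate-binding proteins, which attack the vacuoles of intracellular microbes, and Ubd, a ubiquitin-like modifier. In the list of interferon gamma induced genes 10 of the 16 measured were at least 2-fold above each saline array and none was 2-fold below. Of all genes 1.9% were 2-fold above each and 0.718% below each. The list's median log2 difference was 1.38, against -0.02 over all 4316 genes. A further 2 listed genes were on the array under the minimum, and Cxcl9 passed it through the week 6 TNBS pool alone. Interferons act through known promoter elements, so the 120 bases before the RefSeq start of 7 genes are shown before their values, on GRCm38.p6, 5′ to 3′ on the gene's strand. Capitals mark an ISRE (interferon-stimulated response element, searched as GAAA, any 2 bases and GAAA again, or as TTTC, any 2 bases and TTTC on the other strand) or a GAS (gamma-activated site, TTCNNNGAA, which reads the same on both strands). The windows are those of Gbp2 (chr3:142620543-142620662, plus strand), Gbp3 (chr3:142559924-142560043, plus strand), Igtp (chr11:58199436-58199555, plus strand), Irgm2 (chr11:58214857-58214976, plus strand), Irgm1 (chr11:48871421-48871540, minus strand), Ifit1 (chr19:34640769-34640888, plus strand) and Ubd (chr17:37193772-37193891, plus strand).
Gbp2: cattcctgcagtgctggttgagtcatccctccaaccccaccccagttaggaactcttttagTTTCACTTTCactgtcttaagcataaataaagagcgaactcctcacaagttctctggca
Gbp3: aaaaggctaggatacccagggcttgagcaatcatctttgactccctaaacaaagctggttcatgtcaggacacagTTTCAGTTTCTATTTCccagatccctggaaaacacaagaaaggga
Igtp: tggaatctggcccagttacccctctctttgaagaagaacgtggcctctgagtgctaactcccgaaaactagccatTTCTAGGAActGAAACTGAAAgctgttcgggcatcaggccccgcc
Irgm2: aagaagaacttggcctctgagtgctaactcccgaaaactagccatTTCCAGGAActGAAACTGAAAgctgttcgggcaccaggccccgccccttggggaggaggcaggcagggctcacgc
Irgm1: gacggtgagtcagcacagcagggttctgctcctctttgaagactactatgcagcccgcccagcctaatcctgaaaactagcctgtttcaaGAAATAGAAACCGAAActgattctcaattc
Ifit1: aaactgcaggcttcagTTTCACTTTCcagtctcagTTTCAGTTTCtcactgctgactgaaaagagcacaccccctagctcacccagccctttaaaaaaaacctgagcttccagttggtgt
Ubd: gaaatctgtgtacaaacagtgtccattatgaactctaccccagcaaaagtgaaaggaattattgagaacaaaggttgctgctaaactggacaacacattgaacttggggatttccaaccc

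Igtp and Irgm2, which lie close together on chromosome 11, share a run of 38 bases in these windows, and in each a GAS stands just before an ISRE. In the windows of Gbp3 and Irgm1 a pair of ISRE matches overlap. A second RefSeq start of Gbp3 had no match, and neither had the window of Ubd. The window of Psmb9, another gene that interferon gamma induces, had no match either and is not printed. Within 250 bases before the start, 7 of the 13 interferon gamma induced genes with an entry in the table held an ISRE (53.8%) and 5 a GAS (38.5%). Over all 27025 genes of the table the shares were 3.46% and 8.13%. Of the 82 higher genes 65 had an entry, of which 8 held an ISRE (12.3%) and 6 a GAS (9.23%). Of the 31 lower genes 25 had one, of which 1 held an ISRE (4%) and 2 a GAS (8%). Outside the interferon lists the higher genes with a match were Prss2 with both, Saa3 with an ISRE, and Ctsc and Reg3b with a GAS. A match describes these letters and was not tested as a binding site.

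Ubd read 59.3 and 52.9 on the saline arrays and 308 in TNBS, 5.2-fold and 5.83-fold higher. Igtp (Irgm3) read 64.2 and 93.9 against 304, 4.74-fold and 3.24-fold higher. Gbp2 read 311 and 335 against 921, 2.96-fold and 2.75-fold higher. These genes were named for their large differences. In all of them the TNBS signal lay well above both saline arrays, and the saline arrays differed from each other by far less. The same held for Irgm2 (146 and 144 against 416), Gbp3 (122 and 125 against 341), and Irgm1, which lay just under the floor in saline (49.9 and 46.7 against 145, at least 2.89-fold). Psmb9, an immunoproteasome subunit that interferon gamma induces, read 242 and 189.9 against 526. Irf1, the transcription factor that relays the signal, was high in saline at 686 and 641 and read 976 in TNBS, 1.42-fold and 1.52-fold higher. Socs1, a feedback inhibitor of the receptor, was 1.88-fold and 2.42-fold higher. Wars, which interferon also induces, ran the other way, at 539 and 473 in saline and 431 in TNBS.

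The later saline pool, which had no TNBS, itself stood higher than week 6 saline for these genes, with a median log2 difference of 0.34 over the list. Against that pool the list's median was 0.61. Ubd (59.2), Igtp (124) and Gbp2 (433) were low there as well, while Irgm2 (337), Irgm1 (114) and Slfn2 (216) came close to their TNBS signals of 416, 145 and 234. The type I interferon signature depended on the saline pool for its direction. Against week 6 saline 2 of its 12 measured genes were at least 2-fold higher against each array (1.9% of all genes were), with a list median of 0.58. Ifit1, which binds viral RNA, read 24.3 and 16.3 in week 6 saline and 134 in TNBS, at least 2.68-fold higher. Ifit2 read 31.1 and 41.4 against 141, at least 2.83-fold higher. In the later saline pool these genes read 256 and 186, above the TNBS pool, and the list's median against it was -0.65. Isg20, an exonuclease in the same list, was lower than both week 6 saline arrays, at 69.1 against 108 and 134.9.

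**Figure D3:**
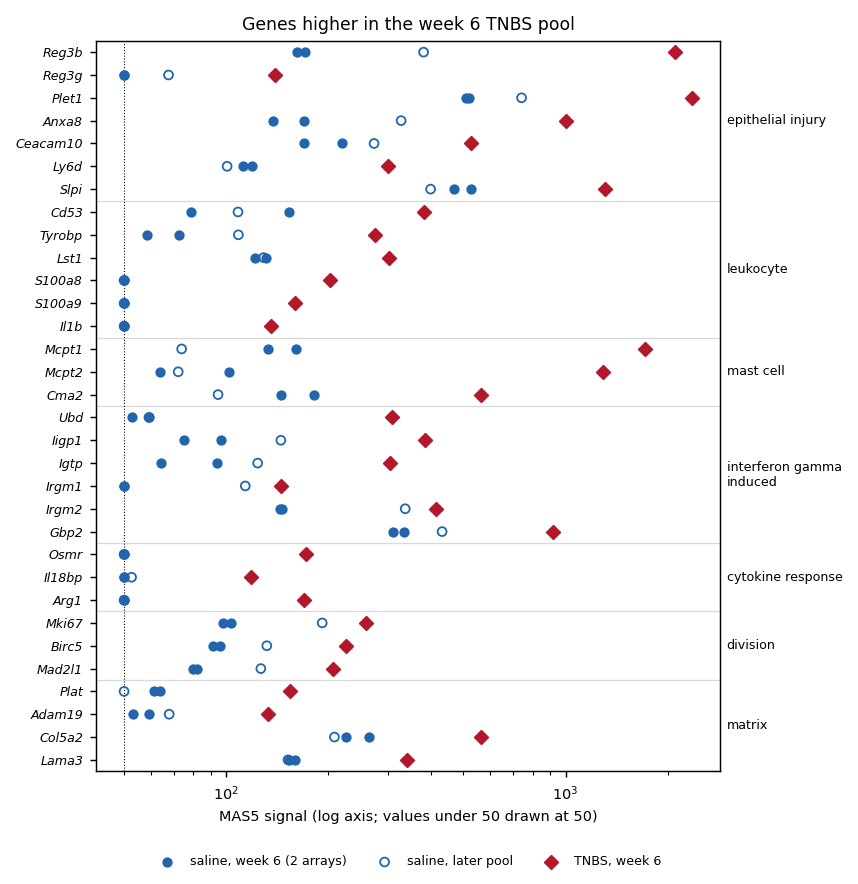
Signals of genes higher in the week 6 TNBS pool, most of them named in the text (log axis, values under 50 drawn at 50). Filled circles are the 2 week 6 saline arrays, open circles the later saline pool and diamonds the TNBS pool. The later saline pool lies close to TNBS for Irgm1 and Irgm2 and close to week 6 saline for Ubd, Lst1 and S100a8.

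Several genes of cytokine signalling lay under the floor in saline. Il1b, the interleukin of the inflammasome, read 7.2 and 2.8 in saline and 135 in TNBS, at least 2.7-fold higher. Cxcl5, a chemokine that draws neutrophils, read 3.8 and 26.5 against 332, at least 6.64-fold higher. Osmr, the receptor of oncostatin M, read 48.6 and 38.6 against 172, and Il18bp, the secreted inhibitor of interleukin 18, 39.2 and 15.3 against 119. The TNBS array stood above the saline arrays in each, which naming genes under the floor in saline by their TNBS signal required. Of 17 measured interleukins, cytokines and receptors 2 were at least 2-fold higher against each array (Osmr and Il18bp), where 1.9% of all genes were. Both lay under the floor on each saline array. A further 39 listed genes on the array did not reach the minimum, and the median was 0.24. In this list 2 genes reached the minimum through the week 6 TNBS pool alone. Over the 14 listed genes that averaged at least 100 in saline the median was 0.17, and none was 2-fold above the saline mean. Of 10 measured chemokine genes 4 were at least 2-fold higher against each array, where 1.9% of all genes were. They were Cxcl9, Ccl8, which draws monocytes, Ccl9 and Cxcl13, the B cell chemokine of lymphoid follicles. Ccl9 was measured in saline, at 129.7 and 165 against 367. The median log2 difference of the 10 was 0.49. With the list cut to the 7 members whose saline mean reached 100, it was 0.13. Of these 7 only Ccl9 was 2-fold above the saline mean. Cx3cr1, a receptor of resident macrophages, hardly differed, at 107 and 106.7 in saline and 107 in TNBS.

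Leukocyte genes stood above saline as a group. All of the 14 measured pan-leukocyte genes but 1 read above both saline arrays, where 36.6% of all genes did, and 7 were at least 1.5-fold above each, where 5.4% of all genes were. Cd53, a tetraspanin of leukocytes, was the 1 gene of this list at least 2-fold higher against each array, where 1.9% of all genes were. It read 153 and 78.5 in saline and 382 in TNBS, 2.5-fold and 4.87-fold higher, so the saline arrays themselves differed almost by the limit. Ptprc (CD45) read 69.5 and 45.4 against 105, and Laptm5, a lysosomal protein of blood cells, 393 and 334 against 688. The summed signal of the list was 3431 and 3426 on the saline arrays, 5514 in TNBS and 3364 in the later saline pool. In such bulk RNA more cells of a type and more RNA per cell cannot be told apart. The part of this shift in the differences of the interferon and cytokine genes was not tested.

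Among myeloid genes Tyrobp, the signalling adaptor of many macrophage and NK receptors, read 72.5 and 58.6 in saline and 275 in TNBS, 3.8-fold and 4.7-fold higher. Lyz2, lysozyme of macrophages, read 467 and 498 against 1038, 2.22-fold and 2.09-fold higher. Lst1, a leukocyte transcript of the MHC region, read 122 and 131 against 302. The saline arrays lay close together for Lyz2 and Lst1, while Tyrobp was not far above the floor in saline and had a log2 difference of 2.08, or 1.46 with a floor of 100. Arg1, an arginase of alternatively activated macrophages, read 1.9 and 19.9 against 170, and Mmp12, the macrophage elastase, 52.7 and 42.4 against 326. Of the 13 measured genes of the Fc receptor and macrophage list 4 were at least 2-fold higher against each array and 9 at least 1.5-fold, with a median of 0.95. Of all genes 1.9% were 2-fold and 5.4% 1.5-fold higher against each. In the macrophage list 2 genes reached the minimum through the week 6 TNBS pool alone, so their difference was in part required by the filter. Over the 10 listed genes that averaged at least 100 in saline the median was 0.89, and 4 were 2-fold above the saline mean. The subunits of complement C1q sat near the limit together. C1qa read 281 and 275 against 562, C1qb 144 and 128 against 290.1, and C1qc 436 and 317 against 659, which made them 1.51-fold to 2.27-fold higher. A second probe set of C1qb did not separate the arrays (80.3, 76.4 and 81.4), and with probe sets averaged its log2 difference was 0.58 in place of 1.10.

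The neutrophil and acute inflammation list had 6 of 10 measured genes at least 2-fold higher against each array, where 1.9% of all genes were. On the array 21 genes of this list did not reach the minimum. S100a8 and S100a9, which form calprotectin, read 18.4 and 33.5 against 202 and 7.7 and 5.0 against 159. Saa3, an acute phase protein, read 19.4 and 11.1 against 262. With Il1b and Cxcl5 these 5 reached the minimum through the TNBS pool alone, so their difference was in part required by the filter. Slpi, a protease inhibitor of mucosa and neutrophils, was measured in saline and read 528 and 468 against 1311. A second probe set of Slpi gave 379 and 424 against 1219, and another, close to the floor, did not separate the arrays (56.0, 65.9 and 60.6). Over the 5 listed genes that averaged at least 100 in saline the median log2 difference was 0.10, against 1.42 over the 10. Those other than Slpi differed less. Saa2 read 3298 and 3310 against 2982, Il1rn 284 and 322 against 324, Csf3r 261 and 372 against 291, and Ly6g 422 and 534.5 against 598.

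B cell genes split between surface receptors and secreted antibody. Ms4a1 (CD20) read 206 and 176 in saline and 400.3 in TNBS, Cd79b of the B cell receptor 173 and 170.5 against 308, and Fcer2a (CD23) 38.3 and 34.4 against 108. Antibody genes were lower, with Ighm at 5404 and 4926 against 3107, Igha at 7778 and 7053 against 5299, and Jchain at 1318 and 1455 against 986. The summed signal of the B cell and plasma cell list therefore was lower in TNBS (21659) than on both saline arrays (27150 and 25391), while its median log2 difference was 0.41. The later saline pool summed to 19958, below the TNBS pool. The variable segments Igkv9-120 and Ighv1-54, with 1 further kappa segment, were at least 2-fold lower against each array. In the later saline pool they stood at 373 and 506, near their TNBS signals of 349 and 389. Probe sets of such segments share sequence with other segments, so their signals are uncertain by gene. T cell genes were mostly under the minimum, with 22 of 26 on the array not measured. Lat, an adaptor of the T cell receptor, read 125 and 124 against 112, Cd4, which reached the minimum through the week 6 TNBS pool alone, 92.4 and 89.8 against 107, and Thy1 89.3 and 91.3 against 107. Zap70, a kinase of the receptor, read 57.2 and 49.3 against 112, and its log2 difference was 1.06, or 0.16 with a floor of 100.

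Antigen presentation genes of class II went both ways, for the most part by less than 2-fold. Of 10 measured, 6 read above both saline arrays and 2 below both, where 36.6% and 41.2% of all genes did. H2-Aa read 1527 and 1497 against 2839, 1.86-fold and 1.9-fold higher, and H2-Ab1 356 and 311 against 632. H2-Eb1, the beta chain of the other class II molecule, was lower, at 217 and 263 against 161. Of the 10 measured genes of that list 1, H2-Oa, a modulator of peptide loading in B cells, was at least 2-fold higher against each array (1.9% of all genes were). For class I, Tap1, the peptide transporter, read 148 and 148 against 309.9 and was 2.1-fold higher against each. Psmb8, the sister of Psmb9, read 524 and 515 against 845.

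Mast cell proteases were far above saline, and Mcpt2 had the largest fold against its nearer saline array of all genes above the floor on all 3 arrays. Mcpt2 read 63.9 and 102 in saline and 1292 in TNBS, 20.2-fold and 12.7-fold higher. Mcpt1 read 133 and 160.1 against 1712, 12.9-fold and 10.7-fold higher, and its second probe set 8.9 and 18.2 against 309. Cma2, a related chymase, read 145 and 182 against 562. These are closely related chymases of mast cells, and probe sets may read more than 1 of them. Other genes of the list did not follow. Kit, the stem cell factor receptor that mast cells need, read 227 and 203 against 149, Tpsb2, a tryptase, 59.9 and 116 against 123, and 13 further mast cell and eosinophil genes on the array, among them Cpa3, Fcer1a and Hdc, did not reach the minimum.

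Defence and repair genes of the epithelium were a large group, with 10 of 33 measured genes of the injury and regeneration list at least 2-fold higher against each array and none lower. Of all genes 1.9% were as far above and 0.718% as far below each array. The median of the injury and regeneration list was 0.43. Reg3b, a secreted lectin against bacteria, read 162 and 170.4 in saline and 2095 in TNBS, 13-fold and 12.3-fold higher. Its second probe set read 17.9 and 17.5 against 391. Reg3g, its close relative, read 6.8 and 8.9 against 139.6, at least 2.79-fold higher. Pla2g2a, a phospholipase that lyses bacteria, read 454 and 330.3 against 3309. All of these read higher in the later saline pool than in week 6 saline, at 382 for Reg3b, 67.6 for Reg3g and 587 for Pla2g2a. Reg3b and Pla2g2a were still far below TNBS there, while TNBS was near 2-fold above that pool for Reg3g.

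Several genes of the repairing surface were higher than both saline arrays. Plet1, a surface protein of progenitor cells, read 508 and 520.5 against 2358, 4.64-fold and 4.53-fold higher. Anxa8, a membrane-binding annexin, read 170 and 137 against 1004. Ly6d read 112 and 119 against 299.6, and Lama3, the laminin chain under migrating epithelium, 153 and 159 against 341. Anxa1, an annexin that limits inflammation, read 739 and 635 against 1344, under 2-fold against array 1 and over it against array 2. Aldh1a3, which makes retinoic acid, read 31.7 and 38 against 257, at least 5.14-fold higher. Wfdc18 was 5.87-fold above array 1 and 3.07-fold above array 2, since its saline arrays read 116 and 221. Wfdc2, another gene of the same protein fold, was lower, at 674 and 673 against 454.

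Digestive enzyme genes of the pancreas were among the genes with the highest folds. Prss2, a trypsinogen, read 16.2 and 3.2 in saline and 1126 in TNBS, at least 22.5-fold higher. Ctrb1, a chymotrypsinogen, read 188 and 114 against 1543, Cel, a bile salt activated lipase, 134 and 129 against 696, and Pnliprp1, a lipase-related protein, 6.2 and 25.4 against 259.7. TNBS stood above both saline arrays throughout. Of 14 measured genes of the pancreas list 7 were at least 2-fold higher against each array (1.9% of all genes were), with Cela2a, Reg1 and Reg2. Some other members differed little or ran the other way. Cela1 read 1843 and 1602 against 1876, Clps, colipase, 592 and 455 against 506, and Pnliprp2 80.3 and 131 against 44.4. Rnase1, the pancreatic ribonuclease, stayed under the minimum of 100 at 77.4 in TNBS, and Ins2, insulin of the islet, read 1.0. The list's median log2 difference was 1.57, and 0.04 over the 8 listed genes that averaged at least 100 in saline. Its summed signal was 20557 and 20136 in saline, 24478 in TNBS and 18124 in the later saline pool. The list also holds Zg16 and Dmbt1 (log2 differences of -0.15 and 0.72), so the sum does not measure digestive enzymes alone. The Reg genes belong to this list as well as to that of epithelial injury, and the part of other tissue in their difference was not tested.

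Most cell division genes were higher, by steps of unequal size. Of 53 measured genes 40 read above both saline arrays and 2 below both, 16 were at least 1.5-fold above each array, and 3 at least 2-fold. Of all genes 36.6% read above both saline arrays and 41.2% below both, 5.4% were 1.5-fold and 1.9% 2-fold above each. These 3 were Mki67, the marker of cycling cells (104 and 97.6 against 259), Birc5, survivin (95.6 and 91.6 against 225), and Mad2l1 of the spindle checkpoint (82.1 and 79.7 against 206). A second probe set of Mki67, near the floor, did not separate the arrays (48.2, 51.8 and 49.7). With probe sets averaged the log2 difference of Mki67 was 0.67 in place of 1.36. Pcna, the clamp of DNA replication, read 290.3 and 257 against 496. Other defining members hardly differed, with log2 differences of 0.07 for Dnmt1, 0.002 for Mcm7, -0.02 for Cdc25a and -0.04 for Uhrf1. The list's median was 0.52, and 0.27 against the later saline pool, where Mki67 read 192. Over the 38 listed genes that averaged at least 100 in saline the median was 0.28, and 1 was 2-fold above the saline mean.

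Matrix genes went both ways. Col5a2, a fibrillar collagen, read 263 and 225 against 563, 2.14-fold and 2.5-fold higher, Col4a1 of the basement membrane 547 and 543 against 995, and Col1a1 498 and 469 against 820.2. Col1a2, the partner of Col1a1 in collagen I, read 482 and 480.3 against 453. Sparcl1 (569 and 608 against 316), Fbln1, a fibulin of elastic fibres (516 and 548 against 318), and Tnxb, tenascin X (139 and 157 against 78.0), were lower than both saline arrays. Of 37 measured genes 2 were at least 2-fold higher against each array, none 2-fold lower, and the median was 0.19. Over all genes the shares were 1.9% higher and 0.718% lower. Among matrix proteases 5 of 24 were at least 2-fold higher against each array, including Adam19 (53.3 and 59.2 against 133) and the lysosomal cathepsins Ctsc (104 and 125 against 298) and Ctsh (114 and 90.4 against 256). Plat, the tissue plasminogen activator, read 63.7 and 61.4 against 154. In the endothelium Vcam1, to which leukocytes adhere, read 76.2 and 53.8 against 156, but another of its probe sets gave 75.3 and 78.0 against 78.1.

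Genes of the secretory epithelium held some of the lowest ratios. Scin, an actin-severing protein, read 1538 and 1710.4 in saline and 487 in TNBS, 3.16-fold and 3.51-fold lower. Capn9, a digestive tract calpain, read 677 and 689 against 215, 3.15-fold and 3.2-fold lower, and Ern2, the stress sensor of mucus cells, 248.5 and 247 against 121. Fcgbp, a protein of the mucus gel, read 10519 and 9074 against 5582, and Klk1, a kallikrein, 5071 and 5767 against 3020. TNBS lay below both saline arrays for each. Of the other goblet cell markers Clca1 was 1.14-fold below array 1 and 1.07-fold above array 2, Retnlb read 11194 and 9378 against 9603, and Tff3, a trefoil peptide, 8863 and 7629 against 6632, below both saline arrays. Of 18 measured genes of the list 3 were at least 2-fold lower against each array, where 0.718% of all genes were, and none higher. The list's median was -0.12, and -0.04 against the later saline pool. Against that pool Ern2 (log2 difference of -0.41) and Capn9 (-0.92) fell under 2-fold, while Scin stayed at least 2-fold lower. Fcgbp read lower in that pool than in TNBS. Defa23, a defensin, read 222 and 218.5 against 29.7, but the later saline pool (34.2) lay under the floor too.

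Absorptive genes were lower by moderate steps. Of 33 measured colonocyte genes 25 read below both saline arrays, where 41.2% of all genes did. At least 1.5-fold below each were 6, where 4.01% of all genes were, and at least 2-fold 2, where 0.718% were. These 2 were Slc20a1, a phosphate transporter (819 and 1024 against 299), and Fabp2, the intestinal fatty acid carrier (539 and 539 against 241). Car4, a carbonic anhydrase, read 2560 and 2300.3 against 1201, and Selenbp1, which oxidises methanethiol, 1753 and 1900 against 981. Krt20 of the mature surface was not lower, at 2700 and 2730 against 2823. Hao2, a peroxisomal oxidase, read 1339 and 1222.5 against 578, and Hpgd, which inactivates prostaglandin E2, 513 and 480 against 263. The later saline pool read higher than the week 6 saline pool for Fabp2 (1159), Hpgd (741) and Selenbp1 (2200), and the list's median went from -0.30 to -0.55 against it.

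**Figure D4:**
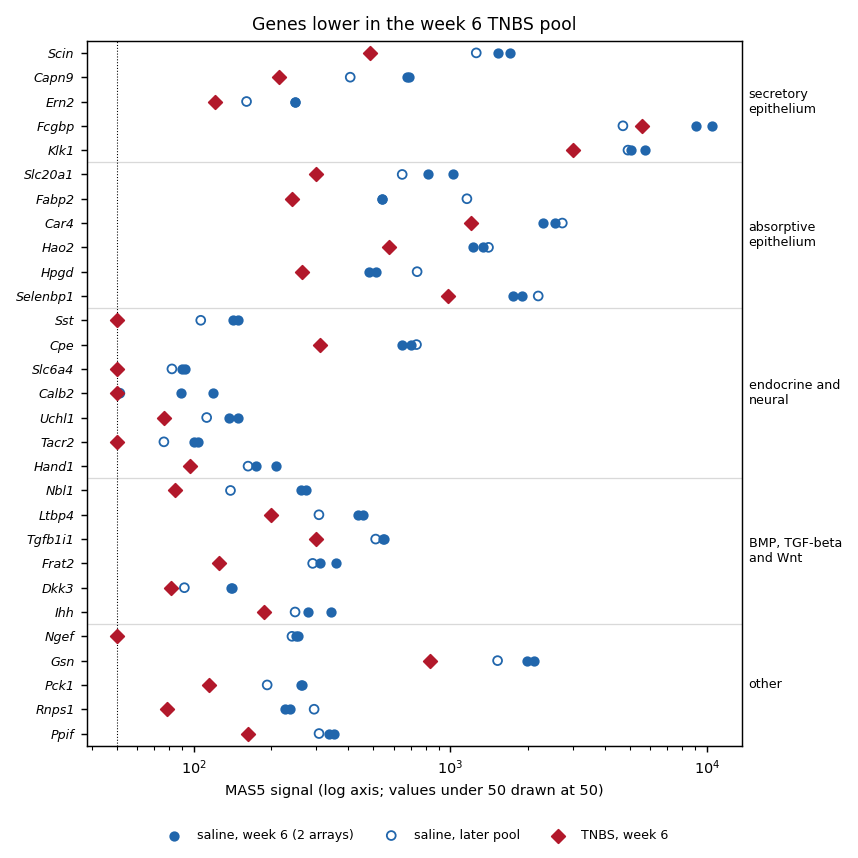
Signals of genes lower in the week 6 TNBS pool, most of them named in the text (log axis, values under 50 drawn at 50). Symbols for the 2 week 6 saline arrays, the later saline pool and the TNBS pool are as in the legend. TNBS lies below both week 6 saline arrays for every gene drawn, while the later saline pool lies below TNBS for Fcgbp.

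Hormone and nerve genes went both ways. Sst, somatostatin, read 148 and 142 in saline and 49.0 in TNBS, at least 2.85-fold lower, and Cpe, the carboxypeptidase that trims peptide hormones, 649 and 704 against 311. Chga, the granule protein of endocrine cells, read 152 and 134 against 128. Tac1, the substance P precursor, was higher, at 69.4 and 81.9 against 184, while Tacr2, a tachykinin receptor of gut muscle, was lower, at 100.2 and 104 against 31.9. Uchl1 of enteric neurons read 148 and 137 against 76.2, and Sox10 of glia 127 and 131 against 116. Gal, galanin, read 117 and 129 against 157. Of smooth muscle genes none was 2-fold lower against each array. Myh11 read 2855 and 2976 against 1868, Smtn, smoothelin, 364 and 313 against 177, and Tagln 3730 and 3542 against 3981, and the list of 16 had a median of -0.16.

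Among signalling genes Nbl1, a secreted BMP antagonist, read 274 and 261 against 84.3, 3.25-fold and 3.09-fold lower, and Ltbp4, which holds latent TGF-beta, 436 and 457 against 200.3. Frat2, which stabilises beta-catenin, read 310 and 359 against 125. Ihh, the hedgehog ligand of the epithelium, read 277 and 342 against 187, and its receptor Ptch1 92.3 and 155 against 85.2. Of 25 measured TGF-beta and BMP genes and of 18 Wnt, Notch and hedgehog genes 1 each (Nbl1 and Frat2) was at least 2-fold lower against each array, and none higher. Of all genes 0.718% were lower and 1.9% higher. The medians of these lists were -0.04 and -0.21.

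Metabolic genes differed by less. Of 58 measured genes of oxidative phosphorylation none was 2-fold different and 5 were at least 1.5-fold below each array, among them Ndufs3 of complex I (914 and 983 against 559) and Uqcrc1 of complex III (949.7 and 1137 against 598). The list's median was -0.13, with 36 genes below both saline arrays and 9 above both, where 41.2% and 36.6% of all genes were, and 4.01% of all genes were 1.5-fold below each. Pck1, the first committed enzyme of gluconeogenesis, read 261 and 263 against 115, and Sult1a1, a sulphotransferase, 304 and 274 against 132. Mt2, a zinc-binding metallothionein, was higher, at 480 and 484 against 1143, and Gpx2, a glutathione peroxidase of crypts, read 2829 and 2924 against 4481. Of 49 measured drug and antioxidant genes 1 was at least 2-fold higher and 1 lower against each array, where 1.9% and 0.718% of all genes were. Ngef read 254 and 249.6 in saline and 40.5 in TNBS, under the floor and at least 4.99-fold lower. Gsn, gelsolin, read 2111 and 1987 against 829, and its relative Capg, of macrophages, went the other way, at 106 and 81.7 against 268.

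Across the 41 lists, medians against either saline array lay close together for most. The widest gaps were in the mast cell list (1.49 against array 1 and 0.85 against array 2, over 6 genes) and the pancreas list (1.90 and 1.53). The erythrocyte list, of which 4 genes were measured, had a median of -0.34, with Hba-a1 at 493 and 518 against 404. Car1, also of this list, is a marker of colon epithelium too (1721 and 1598 against 1156). Heat shock and immediate early genes (median 0.08) and ribosomal genes (-0.10) lay near the median of all genes.

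**Figure D5:**
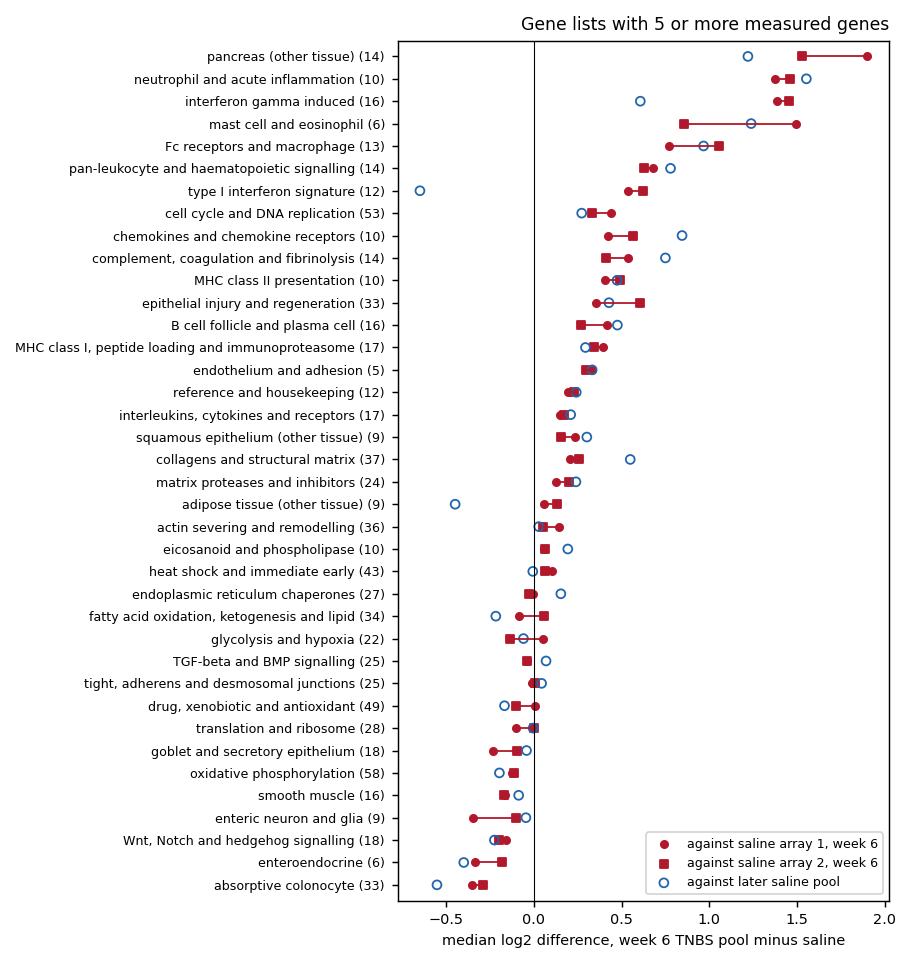
Median log2 difference of the week 6 TNBS pool from saline array 1, saline array 2 and the later saline pool, for each list with 5 or more measured genes (number in brackets). The medians of interferon gamma and macrophage genes lie right of 0 against all 3, as does that of neutrophil genes, 5 of which were measured through the TNBS pool alone (median 0.10 over those of at least 100 in saline); absorptive colonocyte genes lie left of 0 against all 3, and the type I interferon list is right of 0 at week 6 and left of it against the later saline pool (-0.65). The adipose list also changes side (-0.45), but its week 6 median of 0.09 is -0.31 over genes of at least 100 in saline.

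Most of the higher genes also stood above the later saline pool. Of the 82 genes 56 were at least 2-fold above it as well (68.3% of them), while of the 31 lower genes 11 were at least 2-fold below it (35.5%). The TNBS array by which these genes were chosen is used again here, so an error of that array enters both shares. Through that array alone 17 of the 82 reached the minimum signal, so for these the filter required a later saline signal under the minimum. These shares are therefore no independent check of the counted genes. The lower genes that passed against all 3 saline arrays were Cpe, Fabp2, Frat2, Gabarapl1, Hao2, Ngef, Rangrf, Rnps1, Scin, Slc20a1 and Sst. Over all genes 2.99% were at least 2-fold above the later saline pool and 1.65% below it, and 1.3% and 0.255% were above or below all 3 saline arrays. The later saline pool itself was at least 2-fold above week 6 saline for 37 genes (0.857%) and 2-fold below for 41 (0.95%). Its mice were killed later than those of week 6, and its actin ratio differed from the week 6 arrays, though its Gapdh ratio hardly did. The later TNBS arrays had actin ratios of 0.801 to 0.818, near its own. Time, RNA quality and any other difference between week 6 and later arrays cannot be told apart in the choice of control.

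Few of these genes were counted at the later times, where TNBS pools were set against the 1 array of the later saline pool at the same 2-fold limit. The control therefore changed along with the time. Against that pool even the TNBS array by which the genes were chosen kept only 56 of the 82 higher and 11 of the 31 lower genes. The part of the change of control in the smaller counts below was not tested. Of the 82 higher genes 20 were at least 2-fold higher at week 8 (24.4% of them, and 30.3% of the 66 genes higher then, 1.53% of all), 9 at week 10 (11%, and 25% of 36, 0.834% of all) and 1 at week 12 (1.22%, and 3.23% of 31, 0.718% of all). At no later time were 59 of them counted. The genes counted at both week 8 and week 10 were Cd53, Cma2, Mcpt1, Mcpt2, Reg3b and Reg3g, and Cd53 was the gene counted at week 12. Iigp1, Mmp12 and Ubd were counted at week 10 but not at week 8. Of the 31 lower genes 4 were lower at week 8 (Ern2, Ltbp4, Rangrf and Sult1a1), none at week 10 and 1 at week 12 (Mab21l2), when 1.76%, 0.649% and 0.88% of all genes were. The later comparisons share their saline pool with one another, and none has a repeat array.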

How the data were processed

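Colon RNA pools were measured on Affymetrix oligonucleotide arrays. Each deposited value is the linear signal intensity of 1 probe set. Per the labels, the authors used Microarray Suite 5.0 (MAS5), set every array to a target intensity of 150, and labelled 10 µg of pooled total RNA. Detection calls and image files were not used here. Of 12488 probe sets 66 were controls and not used. By the platform's 2016 annotation 10833 had 1 symbol, 396 several and 1193 none; those with 1 were used, and 10817 matched the RefSeq gene table of GRCm38.p6 by Entrez identifier.

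Signals under 50 were set to 50 and log2 was taken. A gene took its brightest probe set by mean log2 over the 6 pools (8251 genes), and had to reach 100 in 1 pool or more (4316 did). With 1 pool on a side nothing was tested: a gene counted when at least 2-fold different from each saline array, or from their log2 mean, and 1.5-fold counts stand beside. A fold against a signal under the floor is a lower bound. Interferon motifs were searched in the 250 bases before RefSeq starts, with no promoter entry for some genes. The counting was tested on simulated data. The 41 lists (1721 symbols, of which 1360 were on the array and 21 were found by older names) and all members were chosen with earlier results of these data known. Named are genes leading either direction, those under the floor on one side, and up to 6 members per list that differed most, plus defining ones that differed little; Rik, Gm, LOC and EST symbols were left out. Alternatives were floors of 25 and 100, log2(value + 50), other scalings, the mean of probe sets, no minimum or 200, each saline array left out, and the later saline pool. Python 3.11.15, numpy 2.4.6, pandas 2.3.3 and scipy 1.17.1 were used.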

Additional observations from a re-analysis of the deposited data

How the results depend on the processing

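Against the log2 mean of the saline arrays, the counts of genes at least 2-fold different (110 higher and 43 lower) stayed within 1.5 times under equal array medians, quantile normalization, the mean of probe sets, a floor of 25, no minimum, and a minimum reached in the week 6 pools. A floor of 100 gave 72 higher and 27 lower genes, log2(value + 50) gave 64 and 20, a minimum of 200 left 28 lower, and the later saline pool gave 71 lower. Against each saline array log2(value + 50) gave 52 higher and 18 lower genes in place of 82 and 31. Leaving out a saline array gave 106 to 135 higher and 58 to 61 lower genes. Signs reversed for 5 named genes, all with the later saline pool: Homer2 (0.28), Ifi27l2a (-0.45), Ifit1 (-0.93), Ifit2 (-0.40) and an immunoglobulin kappa variable segment (0.11). Of 128 named genes counted against the mean, 55 fell under 2-fold with that pool, 49 under log2(value + 50), 39 with a floor of 100 and 18 when probe sets were averaged; the cause was not tested. The neutrophil median was 0.55 with a floor of 100. Of the 82 higher genes 7 had a further probe set above the floor on all 3 arrays, which was at least 2-fold higher too for 2 genes, had the same sign for 5 (near 0 for C1qb and Vcam1) and the opposite in Pklr and in 1 of 2 for Slpi, by under 0.1 on the log2 scale. Signals near the floor limit what can be measured, and 1 pool a side leaves the spread between mice unmeasured.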

Other observations

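Some genes that none of the lists held were at least 2-fold higher against each saline array. Hat1, a histone acetyltransferase, read 80.4 and 88.5 in saline and 216.5 in TNBS, 2.69-fold and 2.45-fold higher. Marcksl1, a membrane-bound regulator of actin, read 136 and 144 against 437, and Ptpro, a receptor tyrosine phosphatase, 82.8 and 84.9 against 216. Lrg1, a glycoprotein of acute inflammation, read 60.4 and 49.0 against 194. Among lower genes outside the lists, Rnps1, an RNA-binding splicing factor, read 226 and 237 against 78.1, Eif2ak1, the haem-regulated kinase of translation, 223 and 215 against 81.8, and Gabarapl1 of autophagy 400.0 and 525 against 186. Ppif, cyclophilin of the mitochondrial matrix, read 352 and 336 against 163. In each of these genes the TNBS signal lay outside the pair of saline signals by more than those differed. The 2-fold rule by which they were chosen largely required this.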
